A study of Mus musculus with 4 samples.

Results

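The BCL2 family decides whether the outer membrane of the mitochondrion is opened during intrinsic apoptosis. The members described here were taken by their gene symbols and make up 10 of the 32285 genes in the count tables. They are the anti-apoptotic genes Bcl2, Bcl2l1, Mcl1, Bcl2a1a, Bcl2a1b and Bcl2a1d, the BH3-only genes Bcl2l11 and Pmaip1, and the effectors Bax and Bak1. All 10 were found in each table and all 10 had enough unique molecular identifiers (UMIs, each standing for 1 captured transcript molecule) to be compared between libraries. The 4 libraries were single-cell RNA-seq libraries of myeloid-derived suppressor cells (MDSCs), immature myeloid cells that dampen immune responses. They were grown for 4 days from the bone marrow of C57BL/6 mice with IL-6 and GM-CSF at 40 ng/ml each and were sorted as live CD11b+ cells. Wild-type (WT) and knockout (KO) cultures, the KO from mice on the same C57BL/6 background, were grown without (PBS) or with 10 µM isoproterenol (ISO), an agonist of all β-adrenergic receptors. The 4 groups were thus WT+PBS, WT+ISO, KO+PBS and KO+ISO, with mice aged 6 to 10 weeks per the study's methods, and how many mice gave marrow to each culture was not given in the sources used here.

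In this pathway the anti-apoptotic proteins hold the effectors Bax and Bak in check, and BH3-only proteins relieve that hold. Bcl2l11 encodes Bim, which binds every anti-apoptotic member, and Pmaip1 encodes Noxa, which binds mainly Mcl-1 and A1. Once released, Bax and Bak form pores in the mitochondrial membrane, cytochrome c escapes and the caspases are activated. Neutrophils and their precursors are known to depend on Mcl-1, and A1, encoded by the Bcl2a1 genes, is found mainly in blood cells. The proteins of Mcl1 and Bcl2a1 are short-lived, and protein levels were not measured in these libraries.

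Each group was 1 library, so no difference between groups was tested and no p-value is given. The 9303 cells kept of 9525 gave 2039 to 2790 cells and 19357824 to 29400468 UMIs per library, with a median of 7484 to 10252 UMIs per cell. No cell barcode occurred in more than 1 library. The study's methods describe pooling of tagged cells before capture, and a split by tag would by itself leave no shared barcode. Levels are UMIs per 1000000 UMIs of the same cells (CPM), and each interval is an exact 95% interval that covers counting error only, not the spread between cultures. Levels are compared for 1 gene between cells and are not read as a ranking of genes. Sums over members are plain totals, in which genes with more UMIs weigh more. The genotypes rest on the sample labels alone, and KO+PBS and KO+ISO are therefore called the KO-labelled libraries. Itgam, which encodes CD11b, was found in all 4 libraries at 290.0 to 363 CPM.

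The 3 Bcl2a1 genes are near-identical copies on chromosome 9, and their sequences are shown because they bear on how far the copies can be told apart. In RefSeq coordinates of GRCm38.p6, Bcl2a1d (ENSMUSG00000099974) lies at chr9:88723288-88731850, Bcl2a1a (ENSMUSG00000102037) at chr9:88956920-88962416 and Bcl2a1b (ENSMUSG00000089929) at chr9:89199273-89207838. Bcl2, the sole member past the fold defined below in both pairs of libraries, lies at chr1:106538176-106714290. RefSeq promoter windows, 250 bases before to 50 after a start site, were matched for 9 of the 10 members in 12 entries. Both strands were searched for TGACG, the core of the cAMP response element, for TGACGTCA, the full element, which holds that core, and for TTCNNNGAA (STAT) and TGANTCA (AP-1). Capitals mark TGACG in the windows printed here, 5′ to 3′ along each gene.
Bcl2a1a (chr9:88956670-88956969, plus strand): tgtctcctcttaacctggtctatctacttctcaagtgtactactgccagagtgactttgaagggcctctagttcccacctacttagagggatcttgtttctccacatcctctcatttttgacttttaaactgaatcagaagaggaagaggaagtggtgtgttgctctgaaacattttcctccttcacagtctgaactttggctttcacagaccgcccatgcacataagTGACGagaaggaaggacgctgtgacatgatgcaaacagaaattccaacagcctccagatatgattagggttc
Bcl2a1b (chr9:89199023-89199322, plus strand): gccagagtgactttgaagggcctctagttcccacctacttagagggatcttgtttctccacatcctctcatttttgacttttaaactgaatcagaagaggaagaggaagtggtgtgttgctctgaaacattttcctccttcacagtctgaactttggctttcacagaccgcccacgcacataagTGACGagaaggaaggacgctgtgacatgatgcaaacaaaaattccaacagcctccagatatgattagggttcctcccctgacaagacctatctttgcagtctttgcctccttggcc
Bcl2a1d (chr9:88731801-88732100, minus strand): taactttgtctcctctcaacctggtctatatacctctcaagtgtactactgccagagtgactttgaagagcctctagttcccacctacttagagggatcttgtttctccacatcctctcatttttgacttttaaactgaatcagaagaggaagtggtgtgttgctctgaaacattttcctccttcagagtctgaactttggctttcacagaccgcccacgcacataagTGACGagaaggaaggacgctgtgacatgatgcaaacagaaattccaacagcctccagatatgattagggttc
Bcl2 (chr1:106714241-106714540, minus strand): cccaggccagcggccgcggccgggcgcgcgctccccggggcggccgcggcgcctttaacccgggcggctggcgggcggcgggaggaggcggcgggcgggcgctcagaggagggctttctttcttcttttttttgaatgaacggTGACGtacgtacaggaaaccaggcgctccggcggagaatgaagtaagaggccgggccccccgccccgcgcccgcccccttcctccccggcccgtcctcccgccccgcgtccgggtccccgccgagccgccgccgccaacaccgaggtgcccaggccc

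TGACG was found in the windows of 5 of the 9 members, namely Bcl2, Mcl1 and the 3 Bcl2a1 copies, and in 20.81% of all 32851 promoter windows of this length. The 9 members had 12 windows, so a share of members is not the same measure as a share of windows. In the Bcl2a1a and Bcl2a1d windows it began 22 bases before the start site, in Bcl2a1b 66 and in Bcl2 107 bases before, and in Mcl1 16 bases after it. TGANTCA, a loose form of the AP-1 letters in which N is any base, was found in the 3 Bcl2a1 windows and in 7.81% of all windows. In the 3 Bcl2a1 windows the letters were TGAATCA, so the match rests on the open N. Stricter AP-1 letters were not searched. The full element TGACGTCA and the STAT letters were found in 0 of the 9, against 1.79% and 8.3% of all windows. These are matches of letters in short windows and say nothing on binding. The aligned stretches of the Bcl2a1 windows were 98.0 to 99.2% identical, so the copies do not count as separate cases. The transcripts of the copies in GENCODE M39 were 98.2 to 99.1% identical over 819 aligned bases. Of the 50-base stretches in the last 300 bases of the transcript, 64.5% for Bcl2a1a, 74.9% for Bcl2a1b and 94.8% for Bcl2a1d were also found in another copy. A read from such a stretch has no unique origin, so the values of the single copies are uncertain and their sum is given beside them. How reads of that kind were counted was not examined, so the sum may miss some of them.

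With ISO, 4 of the 6 anti-apoptotic members and 1 of the 2 BH3-only members were lower past the fold in WT cells. A member was called past the fold when its log2 ratio of CPM, ISO over PBS, was at least 0.5 in size with at least 100 UMIs over both libraries. In WT, 5 of the 10 members were past the fold and all 5 were lower, against 8.58% of 10771 genes in either direction and 6.81% in the lower direction. They were Bcl2, Bcl2a1a, Bcl2a1b, Bcl2a1d and Bcl2l11. The Bcl2a1 genes are near-identical copies, so these counts and the members' median do not rest on 10 separate cases. Summed as 1 gene, the copies were at -0.64 (-0.68 to -0.60). The median log2 ratio of the 10 members was -0.52, and that of all genes was -0.016. In the KO-labelled libraries 1 of the 10 members, Bcl2, was past the fold and was lower, against 2.65% of 10734 genes in either direction and 1.6% in the lower direction, and the members' median was -0.046 beside -0.039 for all genes.

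**Figure D1:**
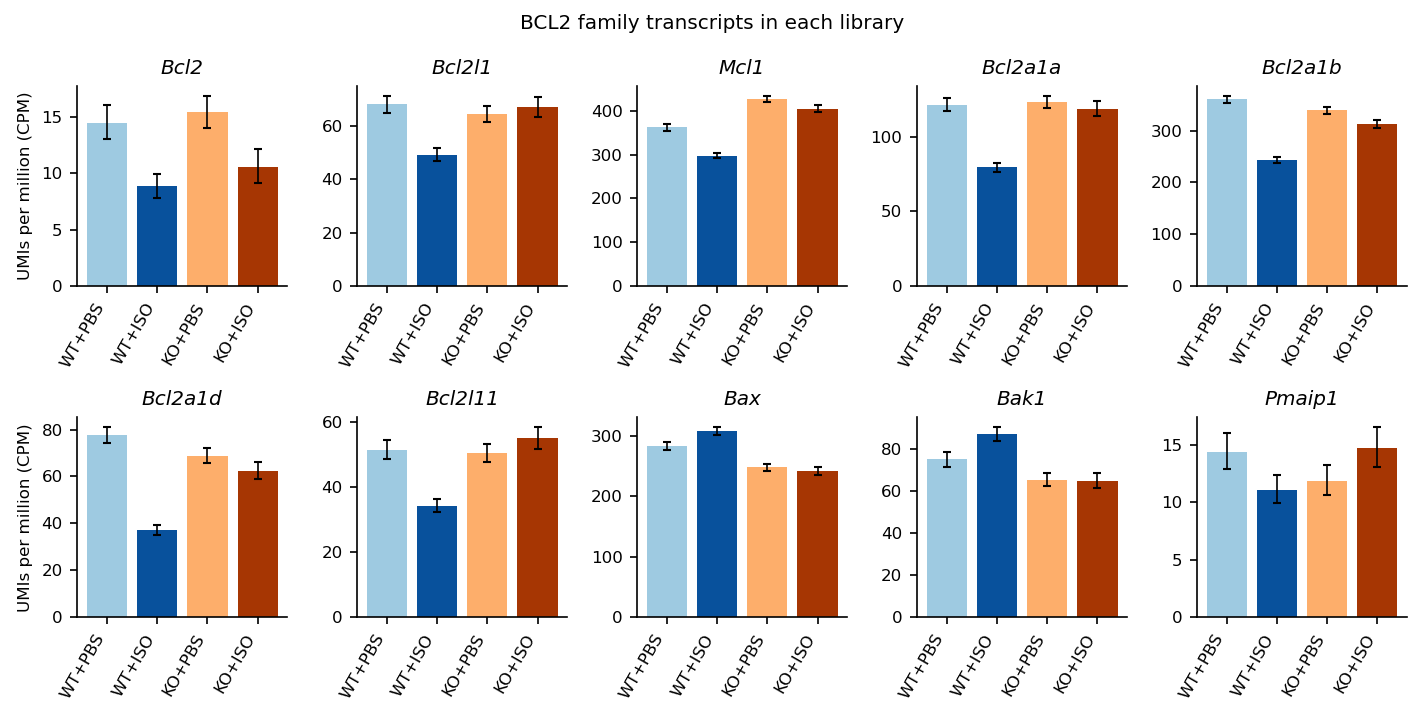
Bars give the level of each member in CPM in the 4 libraries, with exact Poisson 95% intervals as error bars. The other 8 members are lowest in WT+ISO, while Bax and Bak1 are highest there.

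Bcl2 (ENSMUSG00000057329), the founding anti-apoptotic member, was at 14.5 CPM (13.04 to 16.1, 354 UMIs) in WT+PBS, 8.84 (7.80 to 9.99, 260 UMIs) in WT+ISO, 15.4 (14.0 to 17.0, 441 UMIs) in KO+PBS and 10.6 (9.19 to 12.1, 205 UMIs) in KO+ISO. Both ISO libraries were below both PBS libraries. The log2 ratio was -0.71 (-0.95 to -0.48) in WT and -0.54 (-0.79 to -0.30) in the KO-labelled pair. Both lay near the fold, since the WT ratio was -0.48 with equal weight per cell and the KO-labelled ratio -0.49 when cells needed 1000 genes and no more than 5% mitochondrial UMIs. Bcl2 was the most thinly counted anti-apoptotic member, and 24.2 to 26.8% of its UMIs came from 21 to 28 cells of each library.

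Bcl2l1 (ENSMUSG00000007659, chr2:152758732-152833803), which encodes Bcl-xL, was at 68.3 CPM (65.1 to 71.7) in WT+PBS, 49.3 (46.8 to 51.9) in WT+ISO, 64.7 (61.8 to 67.7) in KO+PBS and 67.3 (63.7 to 71.1) in KO+ISO. WT+ISO was the lowest library, and the intervals of the other 3 overlapped. The log2 ratio was -0.47 (-0.57 to -0.37) in WT, just short of the fold, and 0.057 (-0.047 to 0.16) in the KO-labelled pair.

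Mcl1 (ENSMUSG00000038612, chr3:95656944-95663179), which encodes a short-lived protein that neutrophils need, was at 363 CPM (355 to 370) in WT+PBS, 298 (292 to 304) in WT+ISO, 428 (421 to 436) in KO+PBS and 406 (397 to 415) in KO+ISO. Its change with ISO was the smallest of the anti-apoptotic members in WT, with a log2 ratio of -0.28 (-0.33 to -0.24). The ratio was -0.077 (-0.12 to -0.036) in the KO-labelled pair.

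Bcl2a1a was at 122 CPM in WT+PBS, 79.7 in WT+ISO, 124 in KO+PBS and 119 in KO+ISO. Bcl2a1b, the copy with the most UMIs, was at 360.4, 242, 339.8 and 313 CPM in the same order, and Bcl2a1d at 77.5, 37.0, 68.9 and 62.5 CPM. For all 3 copies the intervals of WT+ISO lay below those of the other 3 libraries. In WT the log2 ratio was -0.61 (-0.69 to -0.53) for Bcl2a1a, -0.57 (-0.62 to -0.53) for Bcl2a1b and -1.07 (-1.18 to -0.96) for Bcl2a1d, the largest change of any member. Without the low-RNA cluster described further on, Bcl2a1b was at -0.48 and under the fold. In the KO-labelled pair the ratios were -0.056, -0.12 and -0.14. Summed as 1 gene, the copies gave a log2 ratio of -0.64 (-0.68 to -0.60) in WT and -0.11 (-0.14 to -0.071) in the KO-labelled pair.

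Of the BH3-only members, Bcl2l11 (ENSMUSG00000027381, chr2:128126038-128162547) was at 51.3 CPM (48.5 to 54.2) in WT+PBS, 34.2 (32.1 to 36.4) in WT+ISO, 50.3 (47.7 to 53.0) in KO+PBS and 54.9 (51.7 to 58.3) in KO+ISO. WT+ISO stood below the other 3 libraries. Its log2 ratio was -0.59 (-0.71 to -0.47) in WT and 0.13 (0.011 to 0.24) in the KO-labelled pair. The WT value did not stay past the fold with equal weight per cell, at -0.31. Pmaip1 (ENSMUSG00000024521, chromosome 18) was at 14.4 CPM in WT+PBS, 11.1 in WT+ISO, 11.9 in KO+PBS and 14.7 in KO+ISO. Its log2 ratio was -0.38 (-0.60 to -0.15) in WT and 0.31 (0.078 to 0.54) in the KO-labelled pair, neither of them past the fold, but the latter was past it with equal weight per cell, at 0.56.

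The effectors were not lower with ISO in WT. Bax (ENSMUSG00000003873, chr7:45461695-45466903) was at 284 CPM (277 to 290.3) in WT+PBS, 308 (302 to 315) in WT+ISO, 248 (243 to 254) in KO+PBS and 242 (235 to 249) in KO+ISO. Bak1 (ENSMUSG00000057789, chr17:27019812-27028627) was at 74.8 CPM (71.4 to 78.3), 86.8 (83.5 to 90.2), 65.2 (62.3 to 68.2) and 64.8 (61.3 to 68.5) in the same order. For both genes WT+ISO was the highest library and the KO-labelled libraries were the lowest. The log2 ratio in WT was 0.12 (0.076 to 0.17) for Bax and 0.21 (0.13 to 0.30) for Bak1, both under the fold. With equal weight per cell these were 0.028 for Bax and 0.23 for Bak1. In the KO-labelled pair it was -0.037 (-0.091 to 0.016) for Bax and -0.0083 (-0.11 to 0.096) for Bak1, and the sign of the latter turned with the scaling.

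Summed by role, the 6 anti-apoptotic members were at 1005, 715, 1041 and 978 CPM in WT+PBS, WT+ISO, KO+PBS and KO+ISO, with WT+ISO the lowest. The 4 pro-apoptotic members were at 424, 440.5, 376 and 376 CPM in the same order, with WT+ISO the highest. The log2 ratio of the anti-apoptotic sum was -0.49 (-0.52 to -0.46) in WT and -0.090 (-0.12 to -0.064) in the KO-labelled pair. That of the pro-apoptotic sum, which is mostly Bax, was 0.055 (0.018 to 0.093) and 0.0031 (-0.040 to 0.046). The Bcl2a1 copies made up 560 CPM of the anti-apoptotic sum in WT+PBS and 359 in WT+ISO. Within the clusters described further on, the WT ratio of that sum was -0.19, -0.32, -0.47 and -0.22 in clusters 0, 1, 2 and 3. In clusters 4, 5 and 6 it was -0.096, -0.073 and -0.025, with intervals that held 0.

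Without ISO the members differed little by genotype label in the whole libraries. KO+PBS over WT+PBS, 0 of the 10 members were past the fold, against 6.56% of 10861 genes. Mcl1 was the most raised in KO+PBS, with a log2 ratio of 0.24 (0.20 to 0.28), and Pmaip1 the most lowered, with -0.28 (-0.50 to -0.058). Bax and Bak1 were lower in KO+PBS by -0.19 (-0.24 to -0.14) and -0.20 (-0.29 to -0.10). Within the clusters described further on, Pmaip1 was at -0.81 (-1.22 to -0.40) in cluster 1 and Bak1 at -0.54 (-1.06 to -0.027) in cluster 3. Both were past the fold, and no share of all genes past it was computed there. The difference of the ISO log2 ratios, WT minus KO-labelled, was -0.93 for Bcl2a1d, -0.71 for Bcl2l11, -0.69 for Pmaip1, -0.56 for Bcl2a1a, -0.53 for Bcl2l1 and -0.45 for Bcl2a1b. It was smaller for Mcl1 (-0.21) and Bcl2 (-0.17), and above 0 for Bax (0.16) and Bak1 (0.22). With 1 culture per group these differences were not tested.

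To separate a change in cell make-up from a change within cells of a kind, the cells were clustered without the members and without the other apoptosis genes counted below. This gave 7 clusters of at least 1% of cells and a cluster of 80 cells. A cluster was called like a cell type only from preset markers. Cluster 5 (508 cells, led by Mpo, Ctsg and Elane) was azurophil-granule neutrophil progenitor-like. Clusters 6 (721 cells, with Camp and Ngp) and 4 (1099 cells, with Ltf and Camp) were specific-granule neutrophil-like, and cluster 3 (1835 cells, led by Retnlg) resembled mature neutrophils by its markers. Cluster 1 (1830 cells, Mrc1 and C1qb) was macrophage-like, and cluster 7 (80 cells, Ccr7 and Ccl22) was dendritic cell-like. Cluster 1 passed for 5 of 7 macrophage markers, but also for 4 of 5 monocyte markers (Ccr2, F13a1, Csf1r and Fn1). It passed for 3 of 8 dendritic cell markers as well (H2-Ab1, H2-Aa and Cd74). Shifts among cell kinds inside a cluster were not separated from change within a kind. Cluster 0 (1374 cells, Stfa1 and Cstdc5) and cluster 2 (1856 cells, Gpnmb and Atp6v0d2) stayed unnamed. Cluster 2 had the least RNA, with a median of 3126.5 UMIs per cell. It passed for 4 of 6 mature neutrophil markers (Mmp8, Mmp9, Cxcr2 and Csf3r), but none was among its 10 leading genes. It also passed for Cd68, Csf1r and Cd63 from other lists.

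The members had their own orders of level over the clusters. Mcl1 was higher along the neutrophil-like clusters, from 124.5 to 151 CPM over the 4 libraries in cluster 5, through 186 to 220.4 in cluster 6 and 314 to 357 in cluster 4, to 581 to 800.0 in cluster 3. These ranges did not overlap. Of the 7 larger clusters, the unnamed cluster 2 had the most Mcl1, at 585 to 878 CPM, above cluster 3 in 4 of 4 libraries. Bcl2l1 went from 12.9 to 21.6 CPM in cluster 5 to 94.6 to 137 in cluster 3, and Bcl2l11 from 8.13 to 14.2 to 64.2 to 106. For both genes the range of cluster 2 overlapped that of cluster 3. Bak1 ran in the opposite order, at 93.8 to 114 CPM in cluster 5 and 27.4 to 41.2 in cluster 3, and Bax was at 276 to 365 CPM in cluster 5 and 95.6 to 144 in cluster 3. In CPM, cluster 3 thus had the highest Mcl1, Bcl2l1 and Bcl2l11 and the lowest Bak1 of the 4 neutrophil-like clusters, in each library. The median was 24543.5 UMIs per cell in cluster 5, 12304 in cluster 6, 6743 in cluster 4 and 4747 in cluster 3. CPM is a share of the UMIs, so a higher CPM in cluster 3 need not mean more transcripts per cell. Member UMIs per cell were not compared between clusters.

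Bcl2 was highest in the macrophage-like cluster 1, at 20.8 to 31.4 CPM, and stayed under 10 CPM in clusters 0, 3, 4, 5 and 6. In all 4 libraries cluster 1 stood above cluster 2, the next in order at 8.48 to 22.1 CPM, although their ranges overlapped. The Bcl2a1 copies were low in the granule-forming clusters and high in clusters 1 and 2. Bcl2a1d was at 103 to 166 CPM in cluster 1 and 71.9 to 142 in cluster 2 but at most 12.9 CPM in clusters 4, 5 and 6, and these ranges did not overlap. Bcl2a1b was at 433 to 580.0 CPM in cluster 1 and 552 to 818 in cluster 2, against 86.2 to 193 in clusters 4, 5 and 6. Pmaip1 was at no more than 29.0 CPM in any of the 7 clusters.

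The 80 dendritic cell-like cells held the highest levels of the A1 genes and of Noxa. Over the 4 libraries Bcl2a1b was at 1438 to 2000 CPM there, Bcl2a1d at 397 to 475, Bcl2a1a at 283 to 445 and Pmaip1 at 90.1 to 108. In the other 7 clusters the highest level in any library was 818 CPM for Bcl2a1b and 166 CPM for Bcl2a1d. With 14 to 28 of these cells per library, each value rests on few cells. In this cluster the Bcl2a1 sum had an ISO log2 ratio of 0.052 (-0.091 to 0.19) in WT and 0.22 (0.038 to 0.40) in the KO-labelled pair. Bax was higher there with ISO and past the fold in both pairs. Its log2 ratio was 0.60 (0.20 to 1.01) in WT, on 102 UMIs without and 110 with ISO. In the KO-labelled pair it was 0.75 (0.25 to 1.26), on 71 and 67 UMIs. No share of all genes past the fold was computed for this cluster.

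**Figure D2:**
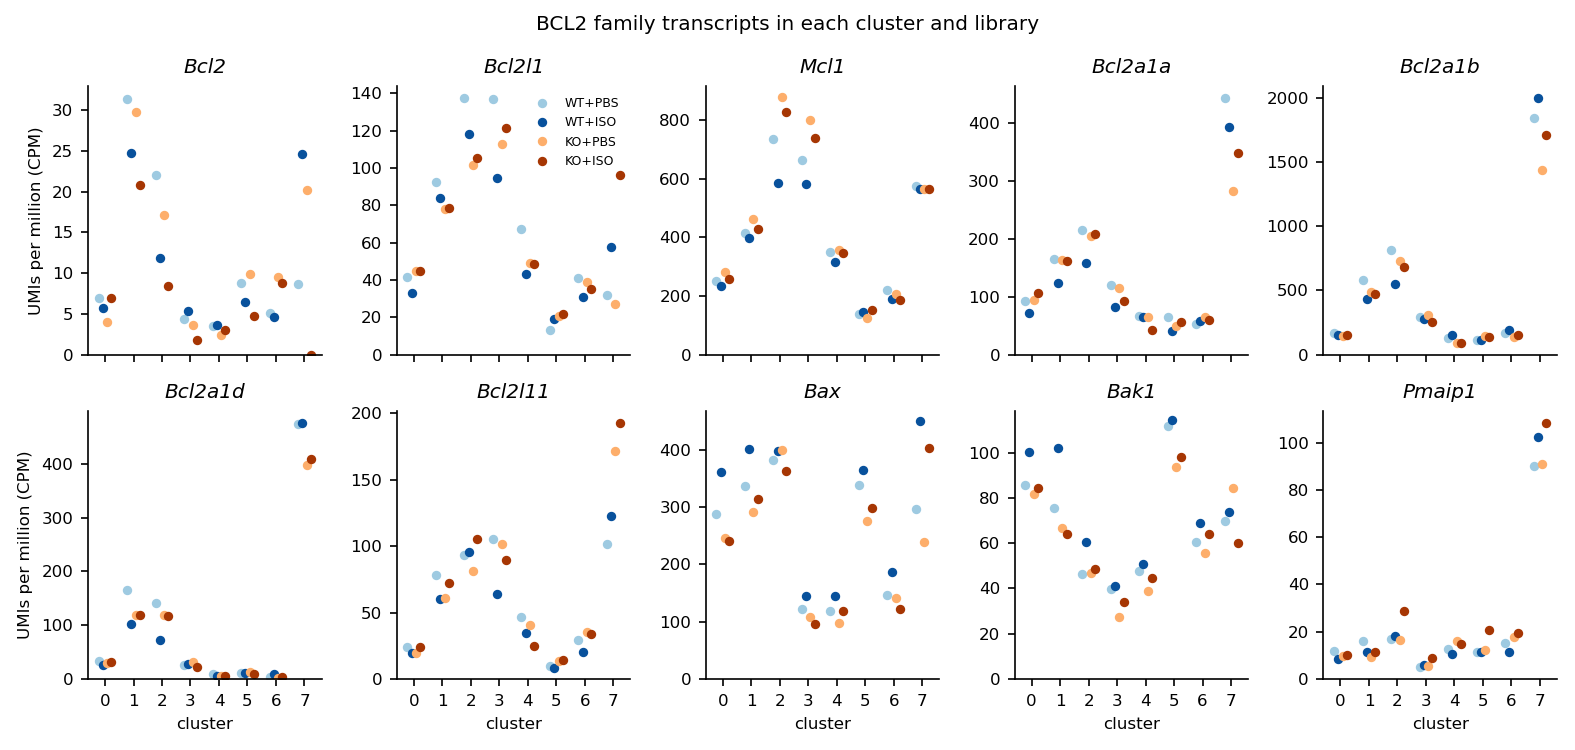
Points give the level of each member in CPM (axes from 0) in clusters 0 to 7, 1 point for each library. Mcl1 climbs from cluster 5 to cluster 3, Bak1 falls along the same clusters, and the Bcl2a1 genes and Pmaip1 peak in cluster 7.

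The make-up of the cultures also moved with ISO. In WT, cluster 1 fell from 17.6% of cells (16.0 to 19.2, exact binomial) to 10.6% (9.36 to 11.9) and cluster 2 from 26.2% (24.4 to 28.1) to 15.7% (14.2 to 17.3). Cluster 6 rose from 6.06% (5.10 to 7.14) to 12.6% (11.3 to 14.1) and cluster 5 from 5.43% (4.52 to 6.46) to 9.32% (8.15 to 10.6). Cluster 3 rose from 15.9% (14.4 to 17.5) to 21.8% (20.1 to 23.6). Among the 7 larger clusters, 1 and 2 had the highest levels of Bcl2, Bcl2a1b and Bcl2a1d, cluster 3 came next for Bcl2a1b at 253 to 309 CPM, and clusters 5 and 6 were below it. In the KO-labelled pair cluster 1 fell from 26.9% (25.2 to 28.6) to 22.2% (20.4 to 24.0) and cluster 3 rose from 19.0% (17.6 to 20.5) to 22.5% (20.7 to 24.4). There cluster 2 did not fall, at 18.7% (17.3 to 20.2) without and 19.5% (17.8 to 21.3) with ISO. Cluster 5 went from 4.01% (3.32 to 4.81) to 3.19% (2.47 to 4.05) and cluster 6 from 5.66% (4.83 to 6.59) to 7.01% (5.94 to 8.21). Cluster 7 went from 1.09% to 0.62% of cells with ISO in WT and from 1.00% to 0.69% in the KO-labelled pair. The summed level of the 8 dendritic cell markers was 965, 326, 1112 and 836 CPM in WT+PBS, WT+ISO, KO+PBS and KO+ISO, and that of the 7 macrophage markers 271, 161, 425 and 354 CPM, with no marker of either list at 0. The 5 eosinophil markers were at 56.6, 3.13, 78.6 and 4.34 CPM, so that they were lower with ISO in both pairs, with Prg3 at 0 in WT+ISO and Ccr3 at 0 in KO+ISO. The 6 specific-granule markers were at 20705, 27564, 20053 and 24176 CPM and the 6 mature neutrophil markers at 873, 1231, 914 and 1300 CPM, higher with ISO in both pairs. The 6 azurophil-granule markers were at 4564, 5905, 3420 and 2639 CPM. The part of these cell kinds in the library ratios was not tested. No cluster passed for an eosinophil marker, and cluster 1 passed for some dendritic cell markers. The split that follows separates clusters only and cannot set such cells apart.

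The difference in library CPM was then split exactly into a part within clusters and a part from make-up. In WT all 8 members that were lower with ISO were lower in both parts. The part within clusters was 46.4% of the fall of Bcl2, 57.4% for Bcl2l1, 49.9% for Mcl1, 61.4% for Bcl2a1a, 42.5% for Bcl2a1b, 49.4% for Bcl2a1d, 58.4% for Bcl2l11 and 67.3% for Pmaip1. At fixed cluster weights the log2 ratios were therefore smaller than in the whole library, at -0.33 for Bcl2, -0.27 for Bcl2l1, -0.14 for Mcl1, -0.38 for Bcl2a1a, -0.25 for Bcl2a1b, -0.53 for Bcl2a1d, -0.34 for Bcl2l11 and -0.25 for Pmaip1. For Bax the parts had opposite signs. Within clusters it was higher by 49.2 CPM with ISO, make-up changed it by -24.25 CPM, and the log2 ratio at fixed weights was 0.24. Bak1 was higher within clusters by 12.4 CPM and make-up changed it by -0.45 CPM.

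In the KO-labelled pair the within-cluster change was largest for Bcl2 and Pmaip1 on the log2 scale. Bcl2 had a fixed-weight log2 ratio of -0.44 and 81.1% of its fall within clusters, and Pmaip1 one of 0.32. Mcl1, at -0.097, had a within-cluster part of -28.0 CPM, beside -32.3 CPM in WT. The fixed-weight ratios of the 3 Bcl2a1 genes were -0.0060, -0.052 and -0.018 for Bcl2a1a, Bcl2a1b and Bcl2a1d. Bcl2l11 was at 0.12, Bcl2l1 at 0.042, Bax at 0.038 and Bak1 at 0.036.

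**Figure D3:**
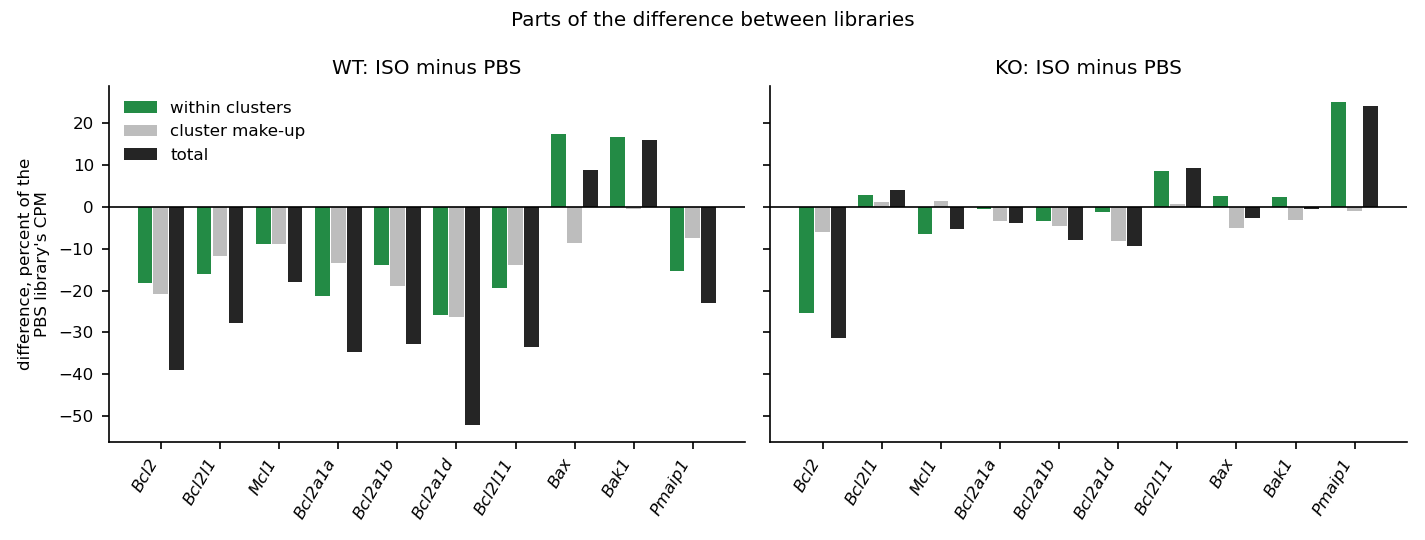
Bars give, for each member, the difference in CPM between the ISO and the PBS library as a percent of the PBS library's CPM, in WT (left) and in the KO-labelled pair (right). The total in black is the sum of the part within clusters in green and the part from cluster make-up in grey. In WT both parts lie below 0 for 8 members, and for Bax the green bar is above and the grey bar below 0.

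Cluster by cluster in WT, most values of anti-apoptotic and of BH3-only members lay below 0 and those of the effectors above 0. Among 33 values of an anti-apoptotic member in a cluster with at least 100 UMIs, 27 were below 0, where 38.9 to 62.8% of all genes in a cluster were. Of the 33 intervals, 19 lay below 0 and 2 above 0. Among 8 such values of the BH3-only members, 7 were below 0, with 3 past the fold and 3 intervals below 0. Bax and Bak1 were above 0 in 7 of the 7 larger clusters each, and none of these values was past the fold. The interval lay above 0 in 4 of the 7 clusters for Bax and in 2 for Bak1, and the other intervals held 0. Among the KO-labelled values, 20 of 32 anti-apoptotic, 3 of 8 BH3-only and 5 of 14 effector values were below 0. There 42.4 to 58.0% of all genes were below 0, and nothing is read from these counts. The clusters share the culture and the counting totals, and the Bcl2a1 copies are not separate cases, so these counts are a description.

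In the unnamed cluster 0 of WT, 0 of 9 members were past the fold, against 3.95% of genes. Bcl2a1a (-0.35), Bcl2a1d (-0.39) and Bcl2l1 (-0.34) lay below it and Bax at 0.32 (0.24 to 0.41). In the macrophage-like cluster 1, 2 of 10 were past the fold, Bcl2a1d at -0.69 (-0.85 to -0.53) and Pmaip1 at -0.51 (-1.02 to -0.0062), against 8.75% of genes. Bcl2a1b there was at -0.42 (-0.50 to -0.34) and Bak1 at 0.44 (0.25 to 0.63). In the low-RNA cluster 2, 2 of 8 were past the fold, Bcl2a1d at -0.98 (-1.30 to -0.67) and Bcl2a1b at -0.57 (-0.68 to -0.45), against 10.6%.

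In the mature neutrophil-like cluster 3 of WT, 3 of 8 members were past the fold, against 11.6% of genes. These were Bcl2l11 at -0.72 (-1.02 to -0.41), Bcl2l1 at -0.53 (-0.79 to -0.27) and Bcl2a1a at -0.53 (-0.81 to -0.25). In the specific-granule neutrophil-like cluster 4, 1 of 7 was past the fold, Bcl2l1 at -0.65 (-1.05 to -0.24), against 6.27%. Cluster 6 of the same kind had 1 of 7, Bcl2l11 at -0.52 (-1.04 to 0.0079), against 7.22%. The Bcl2a1 sum was not lower in these specific-granule clusters, with log2 ratios of 0.14 (-0.063 to 0.34) in cluster 4 and 0.19 (0.026 to 0.36) in cluster 6, but it was in cluster 5, at -0.23 (-0.38 to -0.081).

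In the progenitor-like cluster 5 of WT, 2 of 6 members were past the fold in opposite directions, against 3.8% of genes. Bcl2l1 was higher at 0.55 (0.013 to 1.11), on 40 UMIs without and 105 with ISO, the sole one of the 7 clusters in which it lay above 0 in WT. Bcl2a1a was lower at -0.71 (-0.99 to -0.42). Mcl1 was at 0.077 (-0.094 to 0.25), also its sole value above 0 in WT.

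Among the 7 larger clusters, few values passed the fold in the KO-labelled pair. Cluster 1 had 1 of 10, Bcl2 at -0.52 (-0.82 to -0.22), against 2.92% of genes, and cluster 4 had 2 of 7, Bcl2a1a at -0.61 (-1.04 to -0.19) and Bcl2l11 at -0.71 (-1.28 to -0.16), against 4.02%. Clusters 0, 2, 3, 5 and 6 had 0 members past it, out of 9, 8, 8, 5 and 7, against 2.37%, 5.36%, 4.71%, 4.99% and 5.66% of genes. Bcl2l11 was above 0 in cluster 1 at 0.24 (0.060 to 0.41) and in cluster 2 at 0.37 (0.051 to 0.70), where it was at -0.37 (-0.59 to -0.16) and 0.033 (-0.28 to 0.34) in WT. The Bcl2a1 sum was at -0.30 (-0.44 to -0.17) in cluster 3, beside -0.18 (-0.32 to -0.041) in WT.

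**Figure D4:**
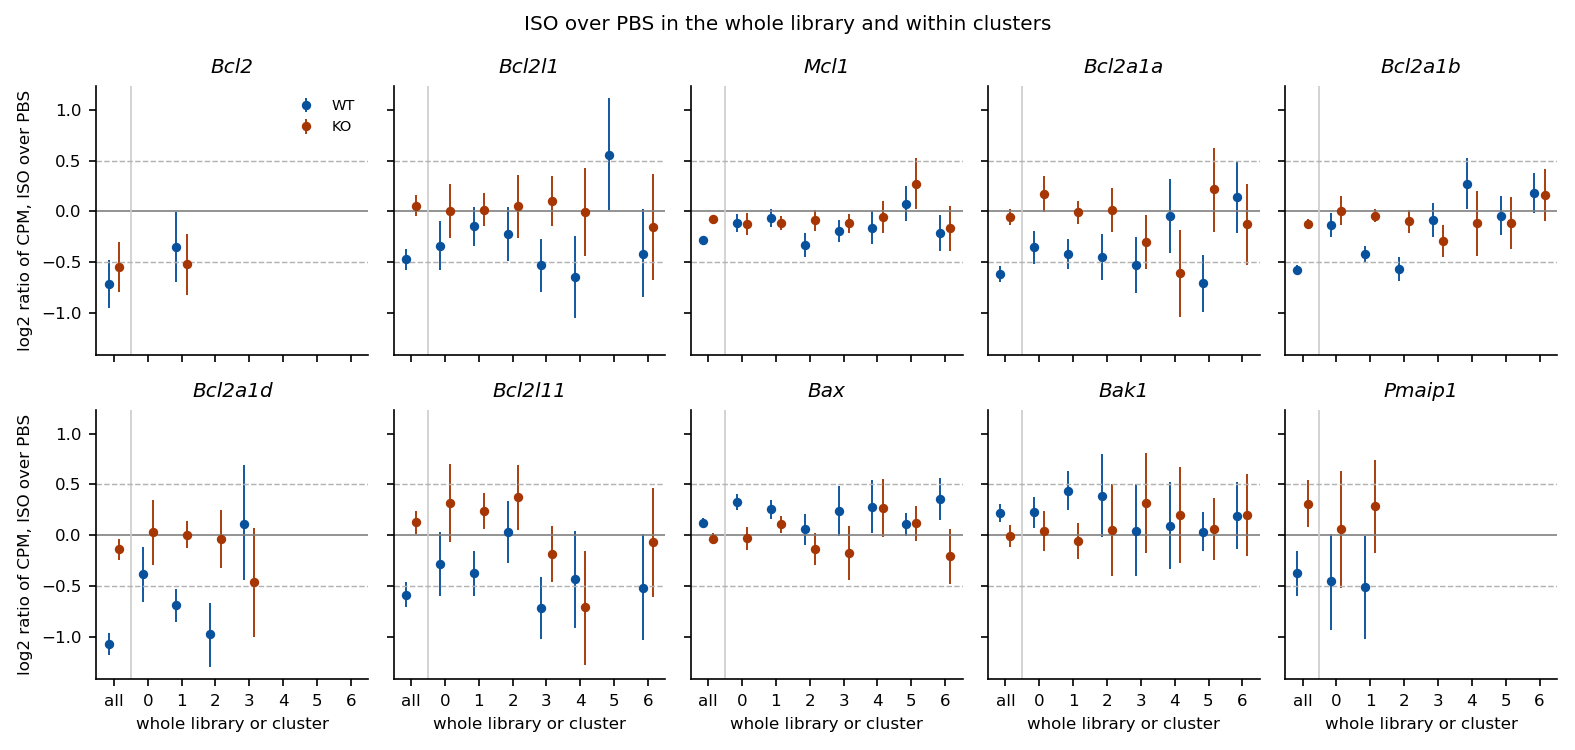
Points give the log2 ratio of CPM, ISO over PBS, in the whole library (all) and in clusters 0 to 6, for WT and for the KO-labelled pair, with exact 95% intervals for counting error. Values under 100 UMIs are left out and dashed lines mark the fold of 0.5. The lowest WT values are those of Bcl2a1d in the whole library and in cluster 2, and WT values of Bax and Bak1 all lie above 0.

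Bcl2 could be compared in cluster 1 alone, since no other cluster had 100 UMIs over both libraries. There it was at 31.4 CPM in WT+PBS, 24.7 in WT+ISO, 29.8 in KO+PBS and 20.8 in KO+ISO. The log2 ratio in WT was -0.35 (-0.70 to -0.0013), and its interval overlapped that of the KO-labelled value given above.

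Of 38 other apoptosis genes, 32 had enough UMIs, and in WT 0 were past the fold upward and 2 downward, a share no higher than the 8.58% of all genes. These were Bmf, a BH3-only gene, at 4.76 CPM without and 2.55 CPM with ISO and a log2 ratio of -0.90 (-1.34 to -0.47), and Bnip3, a hypoxia-linked mitophagy gene, at 63.4 and 34.8 CPM with -0.86 (-0.98 to -0.75). In the KO-labelled pair Bmf was at -0.16 and Bnip3 at -0.0096. There 1 gene was past the fold upward and 0 downward, Bcl2l14 at 0.61 (0.056 to 1.17) on 114 UMIs, beside 2.65% of all genes. All 10 genes of the apoptosome and caspase list and all 5 of the inhibitor of apoptosis list stayed under the fold in both pairs. The median log2 ratio of the 32 genes was -0.040 in WT, beside -0.52 for the 10 members.

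The genes most like each member were sought over 28 points, the 7 clusters in the 4 libraries, by Pearson's r of log2(CPM + 1) among 9228 genes. The points share libraries and depth, so r is a description. Mcl1 was most like March7 (r = 0.982), Cd44 (0.975) and Il1r2 (0.975), and Bcl2l1 most like Grk5 (0.978), Zfand3 (0.976) and Fbxo11 (0.973). Fbxo11 was also first for Bcl2l11 (0.976), before Dusp16 (0.970) and Cpd (0.969). Bcl2a1d went with Mrpl52 (0.979), Csf1r (0.969) and Dab2 (0.958), Bcl2a1b with Pi4ka (0.962), Stx7 (0.951) and Clec4n (0.945), and Bcl2a1a with Sptan1 (0.958), Nsf (0.956) and Qk (0.946). Bax was closest to Lamtor5 (0.983), Nedd8 (0.975) and Denr (0.972), and Bak1 to Ap1s1 (0.972), Cycs (0.968), which encodes the cytochrome c that the effectors release, and Srp19 (0.966). Bcl2 was closest to Dnajc1 (0.915), Fam49b (0.902) and Tent2 (0.890). Pmaip1 had the weakest likeness, with Lypla1 (0.750), Spg21 (0.738) and Slc37a1 (0.731).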

How the data were processed

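Each library was deposited as a table of UMI counts per gene and cell, made by the authors with Cell Ranger (7.0.0 in the file headers, 6.0.0 in the submitters' processing notes, with mm10 and Seurat). Sample tags marked the 4 cultures. The gene deleted in the KO mice is not reported here. Groups followed the sample titles, since the treatment field names isoproterenol for all 4. Cells were kept from 200 genes upward and up to 10% mitochondrial UMIs, and doublets were not called. Counts were summed per library or cluster and divided by their total (CPM). Levels have exact Poisson and ratios exact conditional binomial intervals, at 95%. Clusters came from scanpy 1.11.5 (2000 variable genes, 30 principal components, 15 neighbours, Leiden resolution 0.4). A cluster name marks transcripts only and needed 3 markers with a log2 ratio of at least 1 in 10% of cells, and 1 among the 10 leading genes. The within part was the mean UMI weight times the difference in cluster CPM, summed over clusters, and the make-up part the rest. The members, gene lists and markers were chosen with earlier results of these data known. All members, other apoptosis genes past the fold and the 3 most like genes per member (at least 500 UMIs) were named. Counts simulated for ISO over PBS in WT held Poisson counting error only, with no spread between cultures. There all 193 genes changed by 1 on the log2 scale were called, as were 0.565% of unchanged genes among 10821. The latter is therefore no rate of false calls for the real libraries. The planted changes were larger than the fold of 0.5, so their recall says nothing on members with ratios near the fold. The alternatives were other scalings, cell filters, folds and clusterings.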

Additional observations from a re-analysis of the deposited data

Results flagged for a closer look

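For 5 members the ISO log2 ratio had opposite signs in WT and in the KO-labelled pair. The difference, WT minus KO-labelled, was -0.53 for Bcl2l1, -0.71 for Bcl2l11, -0.69 for Pmaip1, 0.16 for Bax and 0.22 for Bak1. With 1 library per group the difference was not tested. Of these 10 ratios, those of Bcl2l1, Bax and Bak1 in the KO-labelled pair had intervals that held 0.

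Counts of the sample tags entered no comparison as values. Each library was dominated by its own tag, which took 89.9 to 97.9% of its tag UMIs. Per the study's methods the tagged cells were pooled before capture. If the cells were assigned to cultures by tag, all groups rest on that assignment. A leading tag in each library is then no separate check. The share was lowest in KO+ISO, the library with the fewest tag UMIs (1458716 of them, against 3488831 to 7032932 in the others).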

How the results depend on the processing

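Other settings gave 246 values of single members, and none turned the sign of a ratio reported past the fold. Ratios reported under the fold could not fail this check. In the whole libraries, 11 values in WT and 2 in the KO-labelled pair lay outside the counting interval of the reported ratio. At fixed weights 1 value in WT did so, by an interval of the same width. It was that of Bcl2a1b with a clustering resolution of 1.0, at -0.18 where -0.25 was reported. The count of members past the fold in WT, 5 as reported, was 3 with equal weight per cell (without Bcl2, at -0.48, and Bcl2l11, at -0.31), 8 with a fold of 0.25 and 1 with a fold of 1. In the KO-labelled pair, 1 as reported, it was 2 with equal weight per cell (Bcl2 at -0.76 and Pmaip1 at 0.56), 0 when cells needed 1000 genes and no more than 5% mitochondrial UMIs, 2 with a fold of 0.25 and 0 with a fold of 1. Without the low-RNA cluster 2, an alternative chosen after the data were seen, the counts were 4, since Bcl2a1b was at -0.48 in WT, and 1. At fixed weights with a clustering resolution of 1.0, Bcl2a1d was at -0.44 and Pmaip1 at -0.087 in WT. The causes were not tested. Other scalings, no filter on cells, leaving out the 1% of cells with most UMIs and no minimum on UMIs gave 5 and 1. The share of all genes past the fold was computed under the reported settings alone. The counts under other settings therefore have no background beside them, and no excess is read from them. The KO-labelled ratio of Bak1 lay above 0 under 3 of 7 alternatives, at most at 0.028, and that of Bcl2a1a at fixed weights under 2 of 5, at most at 0.0020. No replicate could be left out with 1 library per group, and depth limited the values of Bcl2 and Pmaip1 by cluster.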
